A study of Mus musculus with 18 samples.

Results

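Matricellular proteins are secreted proteins of the extracellular matrix that act on cells more than they build fibres. Their genes outside the CCN family were taken as 10 members (Thbs1, Thbs2, Thbs3, Tnc, Tnxb, Postn, Sparc, Sparcl1, Fn1 and Spp1). They were found by gene symbol, and all 10 were present among the 23238 symbols of the count tables. The counts came from 18 libraries of 2 cell populations sorted from the small intestine of adult C57BL/6J mice. PDGFRb+ intestinal stromal cells (IntSCs) were sorted by a tdTomato reporter. Lymphatic endothelial cells (LECs) were sorted by surface proteins. The study calls them intestinal or lacteal LECs, lacteals being the lymph vessels inside the villi. Its methods describe no sorting step that separates lacteals from other lymph vessels of the small intestine. There were 6 WT and 5 KO libraries of IntSCs, and 4 WT and 3 KO libraries of LECs.

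The mice labelled WT carried the tamoxifen-inducible Pdgfrb-CreERT2 transgene and the Tomato reporter. The mice labelled LATS1/2 KO carried the same transgene and reporter together with floxed alleles of Lats1 and Lats2 (Lats1f/f, Lats2 f/f). Cre and reporter were therefore shared by the groups as labelled, although the methods of the study define WT mice elsewhere as Cre-negative littermates. The study describes tamoxifen injection to induce Cre in its CreERT2 mice, which a genotype alone does not show. The Pdgfrb promoter drives Cre in stromal and mural cells, so that in KO LEC libraries the deletion is expected in the surroundings of the LECs and not in the LECs themselves. The study describes several mice per group, sorted over more than a single experiment. Its numbers of mice per group for these sorted cells match the numbers of libraries. No label ties a library to a mouse or an experiment. An experiment batch therefore could not be entered in a fit. The p-values measure the spread between these libraries, which may be that between mice or technical.

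Thrombospondins (Thbs genes) bind CD36, CD47 and integrins. Thbs1 and Thbs2 inhibit the growth of blood vessels, and Thbs1 also activates latent TGF-β. Tenascins (Tnc, Tnxb) and periostin (Postn) tune the adhesion of cells to collagen and fibronectin, and SPARC and its relative SPARCL1 (hevin) bind collagen and calcium. Fibronectin (Fn1) forms fibrils through integrins, and osteopontin (Spp1) is a secreted ligand of integrins and CD44. LATS1 and LATS2 are the Hippo kinases that restrain YAP and TAZ, transcription cofactors for which secreted matrix genes are known targets in many cell types.

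Values are CPM, the usual scaling of read counts to library size, here with TMM factors, from a method (QuantSeq) that reads the 3′ end of each transcript about once, so that no division by length was made. Totals ran from 5361250 to 10549233 counts per library. Differences were tested with edgeR's quasi-likelihood test, and a gene was called at an adjusted p under 0.05 over all genes tested. A log2 fold change is given ± its standard error. Pdgfrb, which drove the sort, lay between 211 and 1211 CPM in IntSC libraries and between 0.52 and 69.1 CPM in LEC libraries. LEC markers such as Prox1 and Lyve1 marked the LEC libraries, and their 10-gene list summed to 9708 to 16072 CPM there against 160 to 428 CPM in IntSCs. Lats1 averaged 17.3 ± 10.2 CPM (SD, n = 6) in WT and 15.9 ± 3.55 CPM (SD, n = 5) in KO IntSCs, and Lats2 averaged 72.0 ± 23.7 and 113 ± 20.9 CPM (edgeR BH-adjusted p = 0.987 and 0.252). A transcript that has lost inner exons is still counted at its 3′ end, so these counts do not check the deletion, and WT and KO below are the labels.

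In IntSCs 1 of the 9 members tested rose and 1 fell: Thbs1 was 3.13-fold higher and Tnc was 0.505-fold of WT in the libraries labelled KO. The other 7 did not pass the threshold, and Spp1 had too few counts to be tested. The background over all 12421 genes was 0.853% called higher and 0.620% called lower. At an unadjusted p under 0.05 stood 8 of the 9, every one but Fn1, beside 9.81% of all genes. The median log2 fold change of the 9 was −0.41, against 0.0027 over all genes tested.

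**Figure D1:**
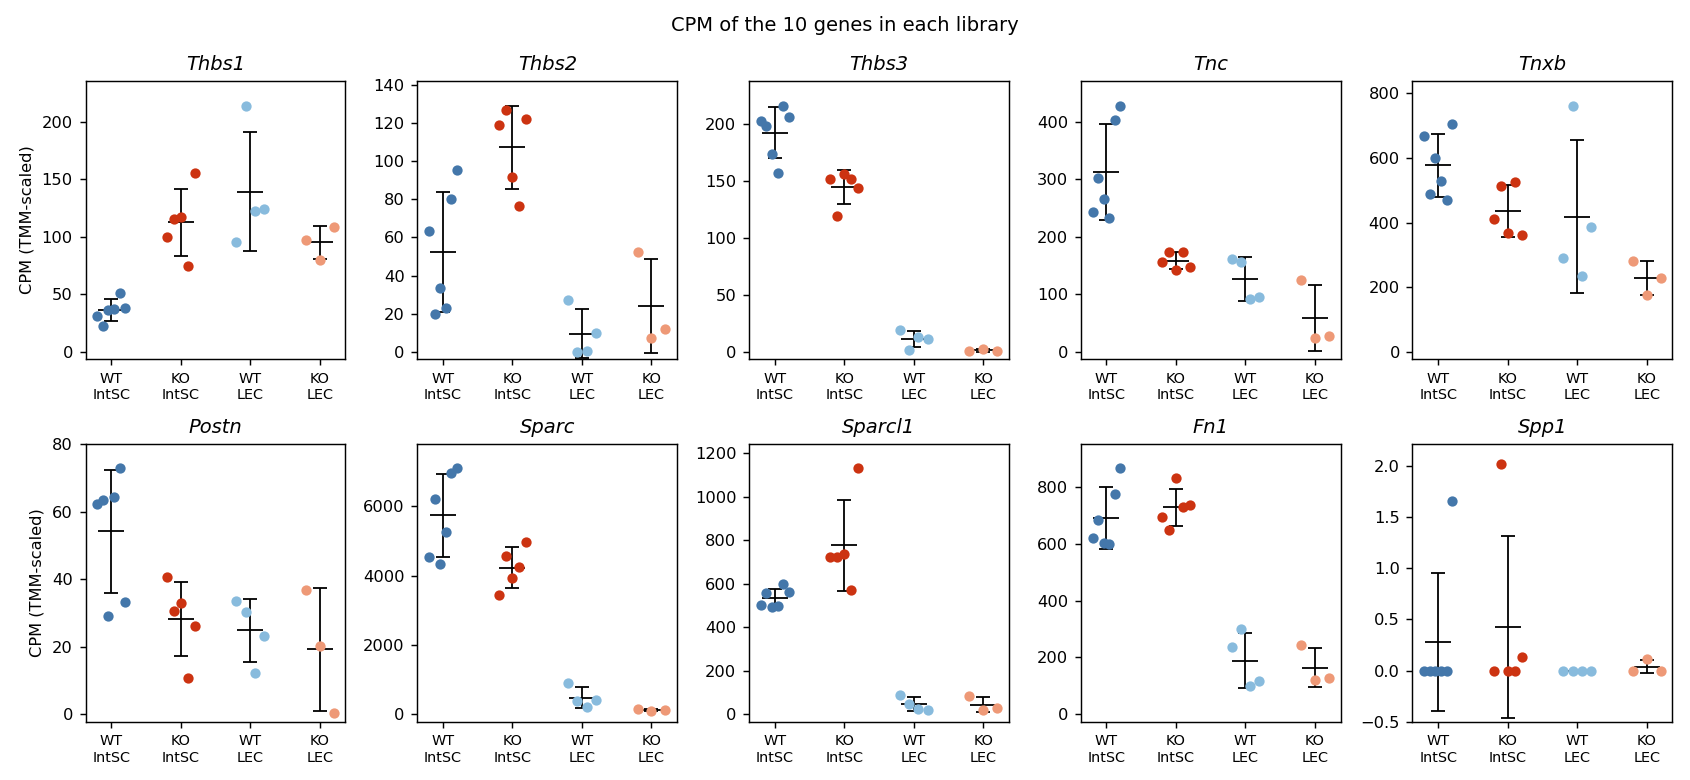
CPM (TMM-scaled, linear axes with a scale of their own in each panel) of the 10 genes in each library of the 4 groups. Points are libraries and the black bars give mean ± SD. Thbs1 in KO IntSCs (74.9 to 155 CPM) lies above every WT IntSC library (22.05 to 51.3 CPM), Tnc lies below, and Sparc, Sparcl1, Thbs3 and Fn1 are low in LECs.

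Thbs1 (mm10 chr2:118111876-118127133, plus strand) encodes thrombospondin 1. Its WT IntSC libraries ranged from 22.05 to 51.3 CPM with a median of 36.8 CPM. The KO IntSC libraries held 99.7, 115, 117, 74.9 and 155 CPM. Every KO library lay above every WT library, and the log2 fold change was 1.65 ± 0.25 (edgeR BH-adjusted p = 0.000697). Of the 12421 genes, 2.82% had groups that did not overlap in either direction. Among the members there were 3 such genes, Thbs1, Thbs3 and Tnc.

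Thbs2 (chr17:14665500-14694235, minus strand) encodes the thrombospondin closest to thrombospondin 1. Its WT IntSC libraries spread from 20.01 to 95.2 CPM with a median of 48.4 CPM. The KO libraries held 119, 127, 92.0, 76.6 and 122 CPM. The upper WT libraries overlapped the lower KO ones, and a log2 fold change of 1.03 ± 0.35 did not pass the threshold (edgeR BH-adjusted p = 0.19).

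Thbs3 (chr3:89215180-89226837, plus strand) belongs to the thrombospondins that form pentamers and lack the domain for which the first 2 members are known as vessel inhibitors. It ranged from 157 to 217 CPM in WT IntSCs, with a median of 200.5 CPM. In KO IntSCs it stood at 152, 119, 157, 152 and 144 CPM. All KO libraries lay below all WT libraries, by a narrow margin at the edge, and the log2 fold change of −0.42 ± 0.17 did not pass (edgeR BH-adjusted p = 0.343). In the annotation Thbs3 overlaps Mtx1 on the other strand, which held at most 33.6 CPM. Whether the counting used the strand is not given in the sources used here.

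Tnc (chr4:63959785-64047015, minus strand) encodes tenascin-C, a 6-armed glycoprotein that loosens the hold of cells on fibronectin and is abundant near healing and growing epithelia. Its promoter window, 250 bases before to 50 after the RefSeq start (GRCm38.p6, chr4:64046966-64047265, minus strand), is printed because Tnc was the member that fell. That of Tgfbi (chr13:56609336-56609635, plus strand) is printed beside it because Tgfbi, a relative named further on, fell too. Capitals mark TATAAA, the core letters of a TATA box, and CAGAC, those of a SMAD element, on either strand.

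Tnc: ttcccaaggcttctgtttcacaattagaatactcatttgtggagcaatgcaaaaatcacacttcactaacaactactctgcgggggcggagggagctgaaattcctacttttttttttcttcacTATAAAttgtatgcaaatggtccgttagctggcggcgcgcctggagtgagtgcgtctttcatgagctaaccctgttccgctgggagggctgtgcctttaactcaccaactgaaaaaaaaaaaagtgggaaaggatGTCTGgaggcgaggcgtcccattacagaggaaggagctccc
Tgfbi: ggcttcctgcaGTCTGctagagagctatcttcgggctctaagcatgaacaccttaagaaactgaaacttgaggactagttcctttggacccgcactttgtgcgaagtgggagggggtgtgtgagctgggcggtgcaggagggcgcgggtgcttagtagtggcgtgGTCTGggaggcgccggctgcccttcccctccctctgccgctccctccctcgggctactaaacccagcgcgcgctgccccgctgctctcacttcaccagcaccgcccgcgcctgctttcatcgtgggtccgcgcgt

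The Tnc window held TATAAA from position −126 and CAGAC on the other strand from position 10, counted from the start, and 47.3% of its bases were G or C. The Tgfbi window held no TATAAA, held CAGAC on the other strand from positions −239 and −85, and had 63.3% G or C. Of 10 windows for the 7 members in the RefSeq table (Thbs1, Sparcl1 and Fn1 have none there), 5 held TATAAA and 8 held CAGAC on either strand. A member can have several windows, so the 10 are not separate genes. The windows with TATAAA were those of Postn, Spp1, Thbs2 and Tnc. The windows with CAGAC were those of Postn, Sparc, Spp1, Thbs2, Tnc and Tnxb. Of all 32851 windows 13.6% held TATAAA and 49.6% held CAGAC. The letters searched for the TEAD factors that carry YAP and TAZ, GGAATG, were in 0 of the 10 windows and in 14.7% of all windows. The study gives a shorter TEAD consensus, the same letters without the last. The Tnc window printed above holds this shorter run on the other strand. How many of the other windows hold it was not counted, so the absence covers the longer run only. TGANTCA, the site known for AP-1, was in the window of Tnxb alone and in 7.81% of all. Both strands were searched for each motif, and none of the motifs contains another. A match is a run of letters in this window and describes no binding.

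Tnc ranged from 233 to 429 CPM in WT IntSCs with a median of 285 CPM. In KO IntSCs it stood at 157, 173, 143, 174 and 147 CPM, so that no KO library reached the lowest WT library. The log2 fold change was −0.99 ± 0.19 (edgeR BH-adjusted p = 0.00859). When all 4 groups shared 1 fit and thus 1 estimate of the spread, the log2 fold change stayed at −0.99 but the adjusted p was 0.426.

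Tnxb (chr17:34670535-34719815, plus strand) encodes tenascin-X, which spaces collagen fibrils in loose connective tissue. It ranged from 470 to 706 CPM in WT IntSCs with a median of 565 CPM, and held 412, 514, 368, 525 and 360 CPM in KO IntSCs. The groups overlapped, and the log2 fold change was −0.41 ± 0.17 (edgeR BH-adjusted p = 0.387).

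Postn (chr3:54361109-54391037, plus strand) encodes periostin, a binding partner of tenascin-C in the matrix. It ranged from 29.1 to 72.8 CPM in WT IntSCs with a median of 62.8 CPM, and held 40.6, 30.5, 33.1, 10.8 and 26.3 CPM in KO IntSCs. Most KO libraries lay in the lower end of the WT range, and the log2 fold change of −0.94 ± 0.34 did not pass (edgeR BH-adjusted p = 0.25).

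Sparc (chr11:55394500-55423183, minus strand) encodes a collagen-binding protein of remodelling stroma. It ranged from 4338 to 7101 CPM in WT IntSCs with a median of 5740 CPM, and held 3451, 4561, 3922, 4247 and 4976 CPM in KO IntSCs. The 2 ranges overlapped, and the log2 fold change was −0.44 ± 0.16 (edgeR BH-adjusted p = 0.25). The summed level of 8 stromal markers, collagen genes and decorin (Dcn) among them, also lay lower, at 10840 to 16845 CPM in WT and 7425 to 12667 CPM in KO IntSCs. Not every gene of that list was lower: Pdgfra averaged 379 and 371 CPM, and Pdgfrb 479 and 873 CPM with every KO library above the WT range (edgeR BH-adjusted p = 0.0614). The part of this in the values of Sparc, Tnxb, Thbs3, Postn and Tnc was not tested.

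Sparcl1 (chr5:104079111-104113733, minus strand) encodes hevin, which is also known from the mural cells of vessels. It ranged from 492 to 599 CPM in WT IntSCs with a median of 531 CPM, and held 726, 723, 737, 571 and 1132 CPM in KO IntSCs. Of the 5 KO libraries 4 lay above the WT range, and the log2 fold change of 0.53 ± 0.17 did not pass (edgeR BH-adjusted p = 0.155). The summed level of 8 smooth muscle and mural markers was 1266 to 1933 CPM in WT and 1474 to 2576 CPM in KO IntSCs. Its genes did not move together, since Notch3 averaged 148 and 250.04 CPM and Myh11 381 and 515 CPM, but Rgs5 103 and 69.6 CPM and Cnn1 64.0 and 55.8 CPM. In bulk samples a change in the share of a cell type and a change of RNA per cell cannot be told apart.

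Fn1 (chr1:71585520-71653200, minus strand) encodes fibronectin, the matrix protein of cell-bound fibrils, and in the annotation overlaps Apol7d on the other strand, which held at most 5.33 CPM. It ranged from 600.3 to 865 CPM in WT IntSCs with a median of 651 CPM, and from 650 to 829 CPM in KO IntSCs with a median of 729 CPM. The log2 fold change was 0.07 ± 0.15 (edgeR BH-adjusted p = 0.966).

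Spp1 (chr5:104435118-104441050, plus strand) encodes osteopontin. It held 8 reads in WT IntSC 6, 15 reads in KO IntSC 2, 1 read in KO IntSC 5 and 1 read in KO LEC 2. The other 14 libraries held none, where 3 counts, the most that a count of 0 allows, correspond to 0.281 to 0.509 CPM. No difference was detectable at this depth.

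Some markers of other cells moved with the genotype label. A list of 8 Paneth and goblet cell genes, led by Defa17, summed to 1.05 to 42.2 CPM in WT and 73.1 to 158 CPM in KO IntSCs, with no overlap. Of its 8 genes, 1 was at 0 in every WT IntSC library. In LECs the same list summed to 0.199 to 17.8 CPM in WT and 56.8 to 234 CPM in KO, and 3 of its genes were at 0 in every WT LEC library. Muc2 went the other way in LECs (means of 5.37 CPM in WT and 0.0364 CPM in KO). A list of 10 epithelial genes overlapped between the genotypes in both cell types. It summed to 0.509 to 128 CPM in WT and 26.9 to 126 CPM in KO IntSCs. In LECs it summed to 32.1 to 159 CPM in WT and 53.4 to 152 CPM in KO. LEC markers in IntSCs summed to 160 to 285 CPM in WT and 265 to 428 CPM in KO. The higher sum lay mainly in Nrp2 (means of 128 CPM in WT and 172 CPM in KO) and Pecam1 (37.2 and 87.1 CPM). Both are genes that blood vessels also use. Flt4 (3.82 and 9.465 CPM), Cdh5 (10.4 and 19.3 CPM) and Tek (8.70 and 11.9 CPM) also had higher means in KO. Means were nearly equal for Prox1 (0.0786 and 0.0800 CPM) and Lyve1 (5.44 and 5.41 CPM). They were lower in KO for Ccl21a (17.9 and 12.6 CPM), Reln (3.34 and 2.08 CPM) and Mmrn1 (2.16 and 1.77 CPM). At the ratio of Thbs1 to that list in LEC libraries of the same genotype, these sums correspond to 1.93 to 3.13 CPM of Thbs1 in the KO IntSC libraries, or 1.24 to 4.17% of the Thbs1 measured. A list of 7 blood endothelial genes summed to 1470 to 3063 CPM in WT and 1356 to 2284 CPM in KO IntSCs, a sum led by Cd34 (means of 1685 and 816 CPM), which stromal cells also carry. Other genes of this list had higher means in KO, with Flt1 at 54.3 and 108 CPM, Ly6c1 at 112 and 206 CPM and Esam at 158 and 292 CPM. A list of 10 immune genes summed to 85.6 to 164 CPM in WT and 17.9 to 72.5 CPM in KO LECs, with no overlap. That sum was led by Cd74 (means of 85.1 and 36.6 CPM) and Jchain (24.9 and 1.56 CPM). Ptprc stood at 0.0615 and 0.0364 CPM, and Adgre1 went the other way (0 and 1.76 CPM). The part of these lists and of the Paneth and goblet genes in any difference was not tested.

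Relatives of the 10 genes were described from a list of 14 genes (further thrombospondins and tenascins, the periostin relative Tgfbi, the SPARC relatives and the osteopontin relatives). In IntSCs 6 of the 14 were tested, 1 rose, 1 fell and 4 did not pass. Their median log2 fold change was 0.29. Tgfbi, which encodes a periostin relative induced by TGF-β, ranged from 198 to 280 CPM in WT IntSCs with a median of 227 CPM. Its KO IntSC libraries held 61.6, 78.2, 94.0, 124 and 94.0 CPM. No libraries overlapped, and Tgfbi fell by 1.37 ± 0.20 on the log2 scale (edgeR BH-adjusted p = 0.00058). With all 4 groups in 1 fit the adjusted p was 0.151.

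Smoc2, a calcium-binding relative of SPARC, ranged from 82.3 to 146 CPM in WT IntSCs with a median of 128 CPM. Its KO IntSC libraries held 295, 171, 193, 265 and 179 CPM, all above the WT range. Smoc2 rose by a log2 fold change of 0.90 ± 0.20 (edgeR BH-adjusted p = 0.0256). The call was lost without WT IntSC 1, without KO IntSC 1 and without KO IntSC 4, at an adjusted p of up to 0.103 and a log2 fold change of at least 0.77. With all 4 groups in 1 fit the adjusted p was 1 at an unchanged log2 fold change of 0.90.

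Receptors were described from a list of 22 genes (integrin chains, CD36, CD47, CD44, syndecans and other binding partners). In IntSCs 20 of the 22 were tested, 1 rose, none fell and 19 did not pass, with a median log2 fold change of −0.18. Itga8 encodes the α8 integrin chain, a receptor for fibronectin, tenascin-C and osteopontin. It held 0 to 3.14 CPM in WT IntSCs with a median of 1.69 CPM, and 8.48, 6.44, 29.5, 31.4 and 14.6 CPM in KO IntSCs. It rose by a log2 fold change of 3.52 ± 0.89, just past the threshold (edgeR BH-adjusted p = 0.0497). The call held under 4 of 8 other settings and in 1 of 11 fits that left out 1 library, with adjusted p-values from 0.042 to 0.203 over the 11.

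**Figure D2:**
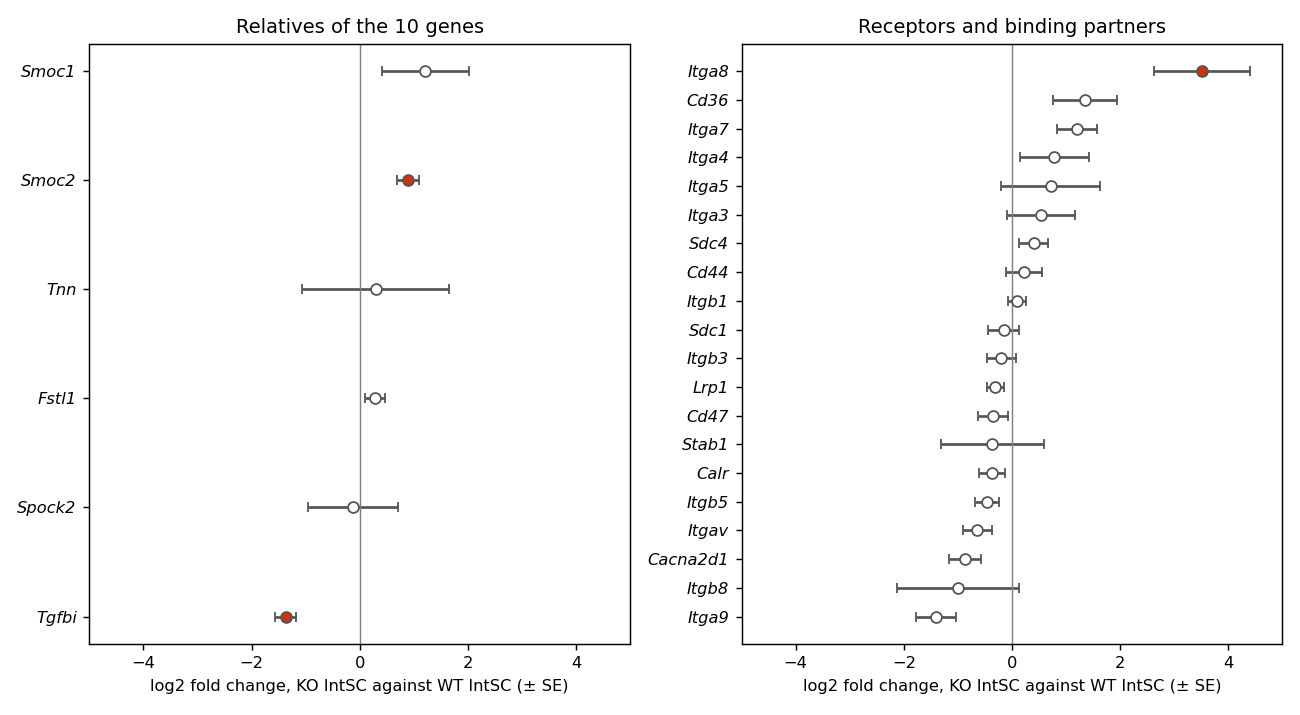
Log2 fold change between KO and WT IntSCs, with standard errors as bars, of the relatives (left, 6 tested) and the receptors and binding partners (right, 20 tested). Red points passed an edgeR adjusted p of 0.05: Tgfbi fell, and Smoc2 and Itga8 rose.

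In LECs, whose stromal neighbours carry the deletion by label, none of the 9 members tested passed the edgeR threshold. At an unadjusted p under 0.05 stood 2 of them, Sparc and Tnxb, beside 7.87% of the 10639 genes. The background was 0.0658% of genes called in either direction and 0.0376% called lower. DESeq2 called 1 member, Sparc, beside 309 of the 10639 genes. The median log2 fold change was −0.54, against −0.03 over all genes.

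Sparc held 908, 390, 218 and 407 CPM in WT LECs and 155, 107 and 139 CPM in KO LECs. All KO libraries lay below all WT libraries, the only such member, beside 9.81% of all genes. The log2 fold change was −1.83 ± 0.42 (edgeR BH-adjusted p = 0.17). It passed with DESeq2 (adjusted p = 0.00168), with every gene that had a read (0.0153) and with all 4 groups in 1 fit (0.00177), and the adjusted p ranged from 0.204 to 0.423 when 1 library was left out. The stromal list was also lower in KO LECs. It summed to 2083 CPM in WT LEC 1 and to 625 to 686 CPM in the other WT LECs. In KO LECs it summed to 310 to 596 CPM. WT LEC 1, the library highest in Sparc, was also highest in this list. Elsewhere the order was not shared. KO LEC 1, lowest in the list at 310 CPM, held the most Sparc of the KO LECs. WT LEC 3, with 686 CPM of the list, held the least Sparc of the WT LECs. The part of the stromal list in the Sparc values was not tested.

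Tnxb held 291, 762, 236 and 386 CPM in WT LECs and 281, 174 and 229 CPM in KO LECs, which overlapped (log2 fold change −0.87 ± 0.38, edgeR BH-adjusted p = 0.587). Thbs1 held 95.3, 214, 122 and 124 CPM in WT LECs and 97.2, 80.1 and 109 CPM in KO LECs. Its log2 fold change of −0.54 ± 0.37 did not pass (edgeR BH-adjusted p = 0.921). WT LEC 2 was the highest library for both genes, and it was the WT LEC library with the lowest total count.

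Tnc held 162, 157, 91.7 and 95.6 CPM in WT LECs and 125, 23.4 and 26.7 CPM in KO LECs. KO LEC 1 lay within the WT range and the other two KO libraries lay below it (log2 fold change −1.11 ± 0.57, edgeR BH-adjusted p = 0.723). Thbs3 held 19.2, 1.35, 12.7 and 11.3 CPM in WT LECs and 0.855, 2.29 and 0.259 CPM in KO LECs, with an overlap at WT LEC 2 (log2 fold change −3.27 ± 2.13, edgeR BH-adjusted p = 0.893). Thbs2 held 27.4, 0, 0.561 and 9.64 CPM in WT LECs and 52.3, 7.43 and 11.9 CPM in KO LECs, a spread within each group wider than the difference between them.

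Postn held 33.7, 30.3, 12.2 and 23.2 CPM in WT LECs and 36.9, 20.3 and 0.518 CPM in KO LECs. Sparcl1 held 89.7, 48.8, 23.7 and 19.6 CPM in WT LECs and 85.8, 20.3 and 28.5 CPM in KO LECs. Fn1 held 237, 300.2, 101 and 116 CPM in WT LECs and 243, 120.0 and 129 CPM in KO LECs. The groups overlapped for each of these genes, and the log2 fold changes ran from −0.36 ± 1.19 for Postn through −0.19 ± 0.42 for Fn1 to −0.01 ± 0.72 for Sparcl1. Of the relatives 4 and of the receptors 18 were tested in LECs, and none passed. Comp, a thrombospondin of cartilage, was not called either, but was measured at 2.98 to 11.03 CPM in WT and 15.5 to 48.2 CPM in KO LECs without overlap (edgeR BH-adjusted p = 0.74). Of the receptors 3 also had no overlap, beside 9.81% of all genes. Itgb1 was higher in KO LECs (means of 553 CPM in WT and 856 CPM in KO). Itga9 (262 and 132 CPM) and Cacna2d1 (11.7 and 0.179 CPM) were lower. Their edgeR BH-adjusted p-values in LECs were 0.442, 0.39 and 0.588. Itga9 (47.0 and 17.7 CPM) and Cacna2d1 (84.9 and 46.6 CPM) also had lower means in KO than in WT IntSCs. Neither passed there (edgeR BH-adjusted p = 0.0575 and 0.216). Itgb1 averaged 512 CPM in WT and 545 CPM in KO IntSCs. These genes are named although their values were seen first.

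**Figure D3:**
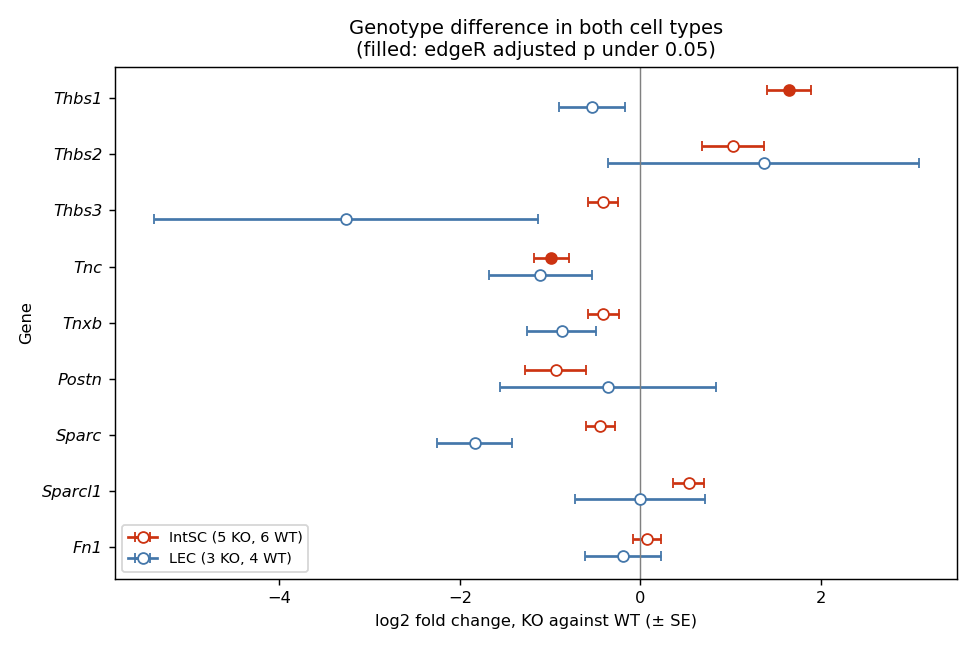
Log2 fold change between KO and WT libraries of the 9 genes tested, in IntSCs (red) and LECs (blue), with standard errors as bars. Filled points passed an edgeR adjusted p of 0.05, which Thbs1 and Tnc did in IntSCs and no gene did in LECs.

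The difference between both genotype differences was tested as an interaction over all 18 libraries, coded as the IntSC change minus the LEC change. Of the 9 members tested, 2 were called, both higher, beside 1.42% of 14015 genes called higher. For Thbs1 the interaction was 2.25 ± 0.44 on the log2 scale (edgeR BH-adjusted p = 0.00799): KO was above WT in IntSCs and below it, without passing the test, in LECs. It passed in 18 of 18 fits without 1 library and under 6 of 7 other settings. For Thbs3 it was 2.90 ± 0.71 (edgeR BH-adjusted p = 0.0342), with log2 fold changes of −0.42 in IntSCs and −3.27 in LECs, neither of which passed on its own. The KO LEC libraries held 6, 21 and 2 reads of Thbs3. It passed in 7 of 18 fits without 1 library, with adjusted p-values from 0.00109 to 0.0836, and not with limma-voom (0.287). The fits that lost it left out WT IntSC 1, 2, 3 or 4, KO IntSC 1, 3, 4 or 5, WT LEC 1, or KO LEC 1 or 3. Sparc came next at 1.46 ± 0.40 (edgeR BH-adjusted p = 0.0609). The median over the 9 members was 0.52, against 0.24 over all genes. These comparisons share the WT and KO libraries of each cell type with those above.

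Between the cell types, most members were higher in IntSCs. In WT libraries 5 of the 9 members tested were called lower in LECs than in IntSCs (Thbs3, Tnc, Sparc, Sparcl1 and Fn1) and 1, Thbs1, was called higher. The background was 12.3% of 12203 genes called lower and 10.3% called higher. For these 6 members the libraries did not overlap, beside 21.1% of all genes. The median log2 fold change was −1.89, against −0.04 over all genes.

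In WT libraries the log2 difference, LEC against IntSC, was −4.11 ± 0.52 for Thbs3, −3.59 ± 0.36 for Sparc and −3.57 ± 0.39 for Sparcl1 (edgeR BH-adjusted p = 3.71e-05, 3.58e-06 and 7.1e-06). It was −1.89 ± 0.30 for Fn1 and −1.32 ± 0.27 for Tnc (0.000285 and 0.0021). Thbs1 was the exception at 1.95 ± 0.30 (edgeR BH-adjusted p = 0.000226): its lowest WT LEC library, at 95.3 CPM, lay above its highest WT IntSC library, at 51.3 CPM. Tnxb did not pass at −0.48 ± 0.29 (edgeR BH-adjusted p = 0.283). Without WT LEC 2, its highest LEC library, Tnxb passed at −0.95 (adjusted p = 0.00864). Postn at −1.13 ± 0.41 and Thbs2 at −2.49 ± 1.08 did not pass (edgeR BH-adjusted p = 0.0608 and 0.124). Both passed with DESeq2 (0.0218 and 0.0295) and limma-voom (0.0434 and 0.0267). Postn also passed with RLE and upper-quartile factors and without WT IntSC 3, and Thbs2 also passed without WT LEC 1, where its log2 difference was −3.94.

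In KO libraries 6 of the 9 members tested were called lower in LECs (Thbs2, Thbs3, Tnxb, Sparc, Sparcl1 and Fn1) and none higher. The background was 16.8% of 12758 genes called lower and 9.11% called higher. The libraries of 7 members, these 6 and Tnc, did not overlap, beside 32.2% of all genes. Tnc did not pass at −1.50 ± 0.53 (edgeR BH-adjusted p = 0.0584), but did under 4 of 8 other settings and, at −2.75, without KO LEC 1, its highest LEC library (9.52e-05). Thbs2 was called at −2.23 ± 0.61 (edgeR BH-adjusted p = 0.0228) but not without KO LEC 3, where the value was −1.90, nor with all 4 groups in 1 fit (0.168). For Thbs1 the 2 cell types overlapped at −0.31 ± 0.29 (edgeR BH-adjusted p = 0.499).

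The order of the mean levels of Thbs1 was WT LEC (139 ± 51.8 CPM, SD, n = 4), KO IntSC (112 ± 29.3, n = 5), KO LEC (95.3 ± 14.4, n = 3) and WT IntSC (35.9 ± 9.61, n = 6). The first 3 neighbours overlapped, and WT IntSC stood below all of them. For Tnc the order was WT IntSC (313 ± 83.7 CPM), KO IntSC (159 ± 14.4), WT LEC (127 ± 38.1) and KO LEC (58.3 ± 57.6). Here WT IntSC stood above all other libraries, and KO IntSC and WT LEC overlapped, as did WT LEC and KO LEC.

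LEC libraries also held reads of stromal markers, and the members differed in how they stood to these. For each LEC library the level was computed that its summed stromal list would carry at the ratio of member to list in IntSC libraries of the same genotype. This level was 63.9 to 131% of the Sparc measured in WT LECs and 80.5 to 173% in KO LECs. It was 54.0 to 124% of Sparcl1 in WT LECs and 26.7 to 155% in KO LECs, and 75.3 to 700.1% of Thbs3 in WT and 250.5 to 3165% in KO LECs.

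Thbs1, Tnxb, Tnc and Fn1 lay above that level in 4 of 4 WT and 3 of 3 KO LEC libraries, Postn in 4 of 4 and 2 of 3, and Thbs2 in 2 of 4 and 3 of 3. The level was 0.824 to 5.68% of the Thbs1 measured in WT LECs and 3.41 to 5.87% in KO LECs. For Tnxb it was 3.72 to 29.9% in WT and 4.58 to 10.8% in KO, for Tnc 9.82 to 29.2% and 3.75 to 33.7%, and for Fn1 11.3 to 44.0% and 8.84 to 32.0%. The ratio assumes that stromal RNA in LEC libraries has the composition of the sorted IntSCs, and whether it has was not tested.

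**Figure D4:**
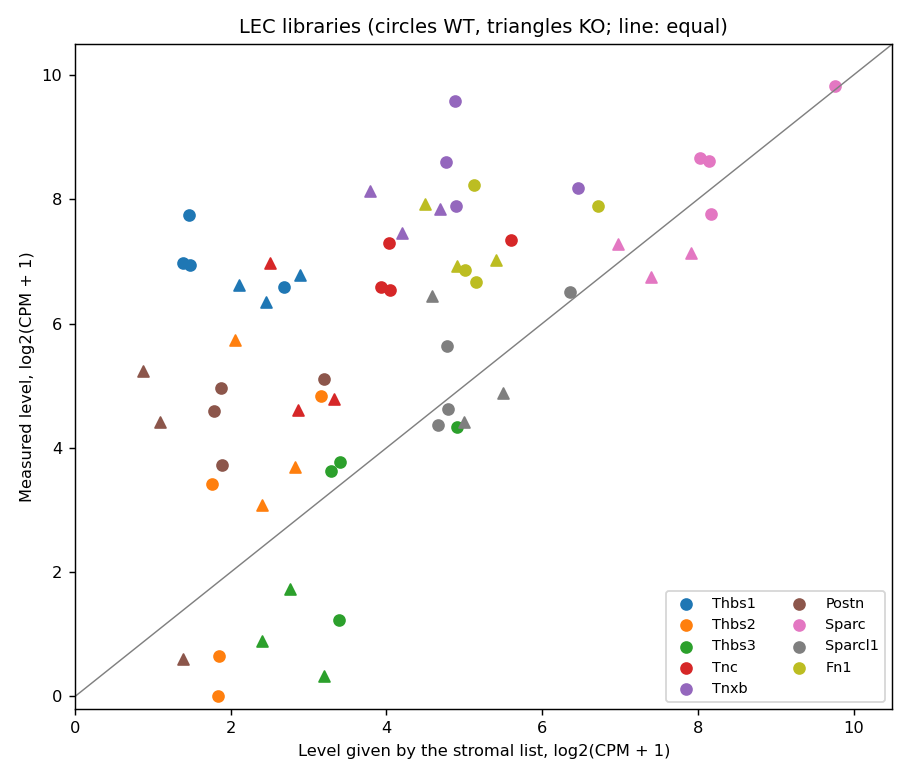
Measured level in each LEC library (vertical, log2(CPM + 1)) against the level that its stromal markers carry at the IntSC ratio (horizontal, log2(CPM + 1)), for the 9 members other than Spp1. Circles are WT LEC and triangles KO LEC libraries, and the line marks equal levels: Sparc and Sparcl1 lie around the line, and Thbs1, Tnxb, Tnc and Fn1 lie above it.

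Among genes outside the list, the 2 with the pattern most like each member over the 11 IntSC libraries were found by Pearson's r of log2(CPM + 1) among 10536 genes. Both genotypes were pooled, so that a shared genotype difference enters r, as do shared libraries and depth. The values are the highest of 10536 over only 11 libraries. How high r would reach by such a selection alone was not tested. Thbs1 was followed by Lama5 (r = 0.958), a laminin chain of basement membranes, and Ogn (r = 0.942), a small leucine-rich proteoglycan. Tnc was followed by Prorsd1 (r = 0.937) and by Fbln7 (r = 0.919), a fibulin of the matrix. Thbs2 was nearest to Myo1h and Prickle1 (r = 0.941 and 0.939), Thbs3 to Fndc3b and Serf1 (0.941 and 0.934) and Tnxb to Skiv2l2 and Rpsa (0.915 and 0.888). Postn was nearest to Tbck and Gemin5 (r = 0.95 and 0.943), and Sparc to Nrd1 and Fam124a (0.893 and 0.884). Sparcl1 was nearest to Dmbt1, a mucosal glycoprotein gene, and Cyp1b1 (r = 0.87 and 0.858), and Fn1 to Rab33b and Nid2, a nidogen of basement membranes (0.843 and 0.839).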

How the data were processed

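RNA was measured in 18 mouse libraries made with the QuantSeq 3′-end protocol. For each library the authors deposited a table of raw counts, whole numbers of reads for each gene symbol. According to the methods of the study, reads were mapped with TopHat and analysed with Cufflinks, and the processing notes of the submitters name mm10, Bowtie2 and edgeR. The program, annotation and strand setting that gave the counts are not given in the sources used here. Each table held 23282 rows, and counts of the 35 symbols on more than 1 row were summed.

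The titles of the samples gave groups and replicate numbers. The test was that of edgeR 4.0.16 under R 4.3.3 (TMM factors, filterByExpr, robust quasi-likelihood fit, Benjamini-Hochberg adjustment over all genes tested, threshold 0.05), with the 2 groups compared in each fit and all 4 groups for the interaction. Standard errors were derived from the F statistic. CPM used TMM factors over all 18 libraries. Alternatives were DESeq2 1.42.0, limma-voom (limma 3.58.1), RLE and upper-quartile factors, every gene with at least 1 read, a mean count of at least 10, the replicate number as a block, all 4 groups in 1 fit, and each library left out. The scripts were tested on simulated data.

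The genes named were the 10 members, Lats1, Lats2 and Pdgfrb, the listed relatives and receptors past the threshold in a KO against WT comparison, and for each member with a mean of at least 5 CPM in IntSCs the 2 genes most like it. Comp, Itgb1, Itga9 and Cacna2d1 were named after their values were seen. Members and lists were chosen with earlier results of these data known. Positions are those of GENCODE vM21, and promoters those of RefSeq, both on the GRCm38 assembly that mm10 names. A count of 0 allows up to 3 counts, or 5.6e-05% of the smallest library. This covers counting error only, since copies made by PCR cannot be told from separate molecules here. The ribosomal RNA precursor Rn45s took 7.02 to 24.4% of counts and stayed in the totals. Protein sequences were not used here.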

Additional observations from a re-analysis of the deposited data

Results flagged for a closer look

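Of 74 groups of values in which 1 library could be tested for standing apart from the others (Dixon's test), 8 had such a library, where chance gives about 3.7, or 1 in 20. For Spp1, WT IntSC 6 stood apart with 1.66 CPM while the other WT IntSC libraries were at 0 (gap 1 of the range), and KO IntSC 2 with 2.01 CPM against at most 0.129 CPM (gap 0.936). For Tgfbi, WT LEC 2 was lowest at 22.8 CPM while the other WT LECs held 138 to 158 CPM (gap 0.854). The stromal list was highest in WT LEC 1 at 2083 CPM against at most 686 CPM (gap 0.958). WT IntSC 6 was highest in the list of 10 epithelial genes, at 128 CPM against at most 28.6 CPM (gap 0.78), and in the Paneth and goblet list, at 42.2 CPM against at most 14.9 CPM (gap 0.663). KO IntSC 3 was highest in the glial and neural list, at 21.8 CPM against at most 10.3 CPM (gap 0.83). WT LEC 2 had the lowest total of its group, 7464241 counts (gap 0.943).

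The interaction of genotype and cell type was called for 3 of the genes described. The log2 change in IntSCs minus that in LECs was 2.25 for Thbs1. It was 2.90 for Thbs3, with means of 193 and 145 CPM in WT and KO IntSCs and of 11.2 and 1.14 CPM in WT and KO LECs. The call of Thbs3 held in 7 of 18 fits without 1 library and was lost with limma-voom (limma-voom adjusted p = 0.287). Cacna2d1 encodes a calcium channel subunit known as a thrombospondin receptor and is named here after its values were seen. Its difference was 5.15 ± 1.18 (edgeR BH-adjusted p = 0.0216). Cacna2d1 averaged 84.9 and 46.6 CPM in WT and KO IntSCs, and 11.7 and 0.179 CPM in WT and KO LECs. Its WT LEC libraries ran from 0.666 to 32.7 CPM and its KO LEC libraries from 0 to 0.427 CPM. The call was lost with limma-voom (adjusted p = 0.212) and without WT LEC 2, KO LEC 2 or KO LEC 3 (edgeR adjusted p of up to 0.0576, at 3.83 to 4.88 on the log2 scale).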

How the results depend on the processing

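Over the settings other than leaving out a library, 344 values kept their direction and their side of the threshold, 16 gained and 16 lost the threshold and 6 changed sign; with 1 library left out, the numbers were 491, 5, 28 and 13. In IntSCs edgeR called 183 genes, DESeq2 376, all 4 groups in 1 fit 27 (with 1 member), and 99 to 186 without 1 library. In LECs edgeR called 7 genes, DESeq2 309 (1 member), limma-voom 12, every gene with a read 32 (1 member), a mean count of at least 10 20, all 4 groups in 1 fit 538 (2 members, Thbs3 and Sparc), and 0 to 16 without 1 library. The interaction was called for 238 genes, by DESeq2 for 1023, by limma-voom for 143 (1 member), and for 161 to 461 genes and 1 to 3 members without 1 library. The cause of these differences was not tested. RLE factors moved the median of all genes in the interaction from 0.24 to 0.13, and upper-quartile factors moved that of WT LEC against WT IntSC from −0.04 to −0.15.

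Replicate numbers are shared by the groups, but the labels do not say what a number stands for, and 0 of the same-numbered pairs had deviations correlated over 0.1 (mean r from −0.004 to 0.036). With the replicate block, IntSC calls went from 183 to 122 (members 2 to 3, with Thbs2 at 1.46, adjusted p = 0.0298, and Smoc2 lost at 0.128), LEC calls to 3, WT cell type calls from 2763 to 1596, KO cell type calls from 3302 to 895 (members 6 to 4, with Thbs2 lost at 0.0592 and Tnxb at 0.132) and interaction calls to 16 with 0 members (Thbs1 2.37, adjusted p = 0.229, and Cacna2d1 4.02, 0.599).

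Sign changes were limited to values smaller than their error. Sparcl1 in LECs was −0.01 and became 0.033 with DESeq2 and with RLE factors, 0.0034 with every gene that had a read and 0.0013 with a mean count of at least 10, and −0.88 to 0.55 without 1 library. Without 1 library Postn in LECs ran from −1.25 to 0.22 and Fn1 from −0.58 to 0.13. The interaction of Postn, −0.52, became 0.67 with limma-voom and 0.60 with the replicate block, and ran from −1.10 to 0.40 without 1 library. The interactions of Thbs2 and Tnc ran from −1.72 to 1.07 and from −0.21 to 1.42.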
